A study of Mus musculus with 36 samples.

Results

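Livers of mice returned from high-fat to low-fat diet (HFLF) were compared with livers of mice kept on high-fat diet (HF). The members were all 6 HFLF and all 6 HF liver libraries, 12 of the 36 libraries of the series, which also holds low-fat (LF) livers and epididymal fat. All mice were wild-type C57BL/6 males of the F0 generation, ate chow from weaning to 6 weeks of age and were 24 weeks old at the end. From then on, HF mice were fed high-fat diet throughout, for 18 weeks. HFLF mice spent 9 weeks on high-fat diet and the next 9 weeks on low-fat diet. The comparison asked what the liver transcriptome looked like after diet return, at equal age, beside continued high-fat feeding. The series text states n as 4 to 6, while each liver group holds 6 libraries. No label ties a library to a mouse, so some may share a mouse, and p-values measure the spread between these libraries. The LF livers, on low-fat diet for 18 weeks, entered no test here and differed widely among themselves. Their values are set beside some results as a description only.

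High-fat feeding is known to load hepatocytes with triglyceride, which is stored in lipid droplets under a coat of perilipin proteins. Fatty acids reach the hepatocyte through transporters such as Cd36, are oxidized in mitochondria and peroxisomes under the transcription factor PPARalpha, and are also made from carbohydrate by lipogenic enzymes. Hepatocytes secrete acute-phase proteins, such as serum amyloid A and haptoglobin, in response to inflammatory cytokines.

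The genes of the count table held 11.7 to 20.3 M counts per HF library (median 18.2 M) and 12.7 to 19.8 M per HFLF library (median 14.6 M). Mitochondrially encoded genes took 3.51% to 4.07% of counts in the 12 libraries. All 7 hepatocyte markers were measured, and their summed level was 79959 to 94347 counts per M (CPM) in HF and 85923 to 96474 CPM in HFLF. Of these markers only Cps1 was called. The first principal component of the 12 libraries carried 27.3% of the variance. HF libraries 1 to 4 lay between -34.7 and -20.4 on it and HFLF libraries between 3.33 and 37.6, while HF libraries 5 and 6 lay at 1.92 and 2.42, beside the HFLF libraries. HF library 5 also had the fewest counts of the 12. In bulk tissue, fewer cells of a type and less RNA per cell cannot be told apart.

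edgeR called 1181 of 14052 genes at an adjusted p of 0.05, which is 8.40% of the genes tested. Of these, 545 rose in HFLF against HF (3.88%) and 636 fell (4.53%). The median log2 fold change over all genes was -0.003, and that is the background for the medians given below. HF and HFLF libraries did not overlap for 551 genes (3.92%), among them 195 of the genes that rose and 276 of those that fell. Among the genes that fell, HF library 5 or 6 was the lowest HF library in 442 (69.5%), and among those that rose it was the highest in 357 (65.5%). The count of calls fell to 507, 488 and 402 without HF library 2, 3 or 4, and to 761, 734, 677 and 562 without HFLF library 3, 4, 5 or 6. It was 1653 without HF library 5. Adding the LF livers to 1 model of all 3 diets gave 735 calls, and DESeq2 gave 1924.

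**Figure D1:**
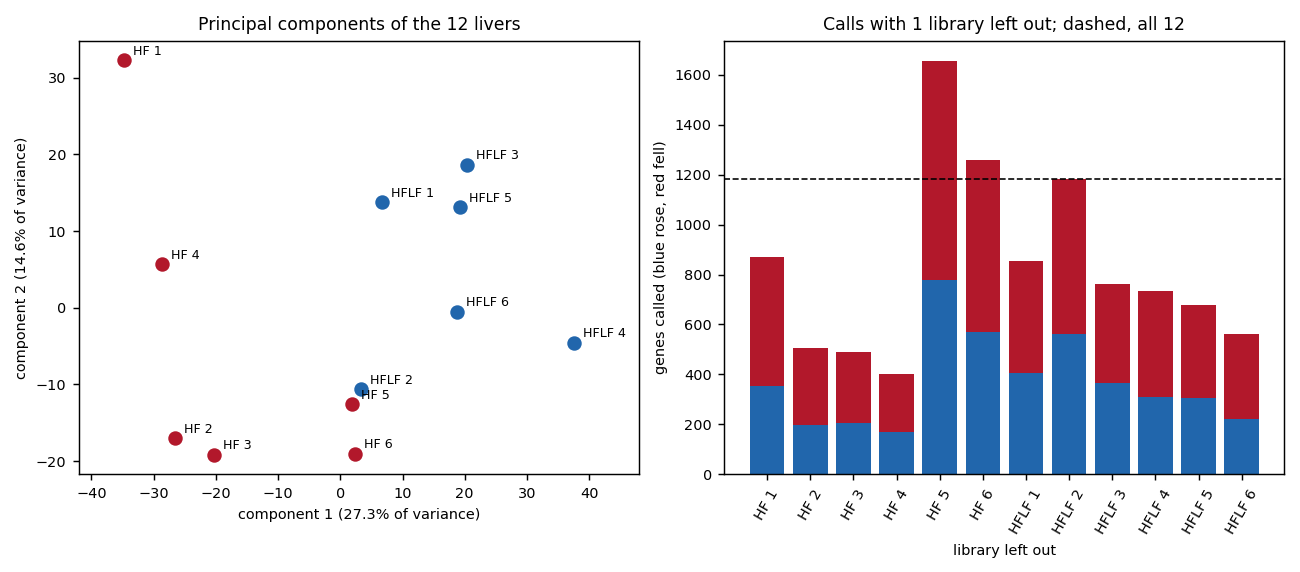
Left, the 12 liver libraries on the first (x axis) and second (y axis) principal components, with HF in red and HFLF in blue; HF libraries 5 and 6 lie nearest the HFLF libraries. Right, genes called when the library on the x axis was left out, blue for genes that rose and red for those that fell; the count runs from 402 without HF library 4 to 1653 without HF library 5, and the dashed line marks 1181 with all 12.

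Levels below are CPM, given as the lowest, the median and the highest of 6 libraries, and changes are log2 fold changes of HFLF against HF with their SE and the p adjusted over all genes. "Rose" and "fell" are written only of genes that passed. Where a call was lost on leaving out 1 library, each such library is named, each left out by itself, with the log2 fold change without it, or the range of these where there are several. The 33 gene lists held 911 entries, of which 859 were measured. The 8.40% of all genes called is the background for counts of called members. A count near that share describes single genes and not its list. The 10 largest rises and 10 largest falls are plotted by library. They were taken from called genes whose mean CPM over the 12 libraries had a log2 of at least 2. HF and HFLF libraries did not overlap for 4 of these rises and 5 of these falls. The plotted genes were picked for the size of this same contrast, so those counts are a description.

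**Figure D2:**
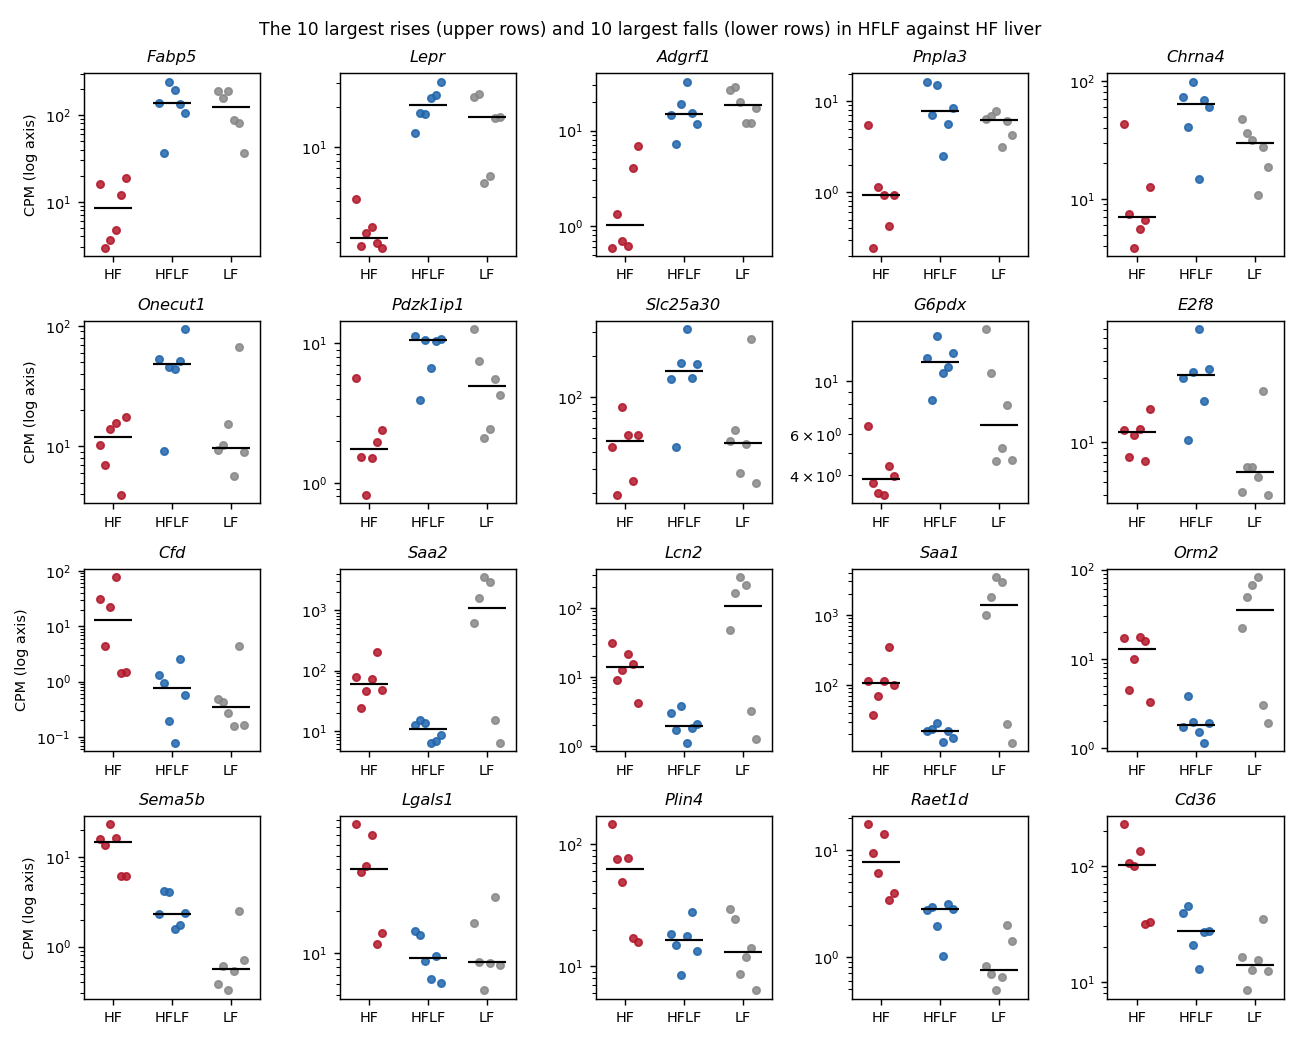
CPM on a log axis of the 10 largest rises (upper 2 rows of panels) and the 10 largest falls (lower 2 rows) in each liver library of the HF, HFLF and LF groups (x axis), with 1 point per library and a bar at the group median. Fabp5, Lepr, Adgrf1 and G6pdx separate HF from HFLF completely, and the serum amyloid genes and Lcn2 are lowest in HFLF and in LF libraries 5 and 6.

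**Figure D3:**
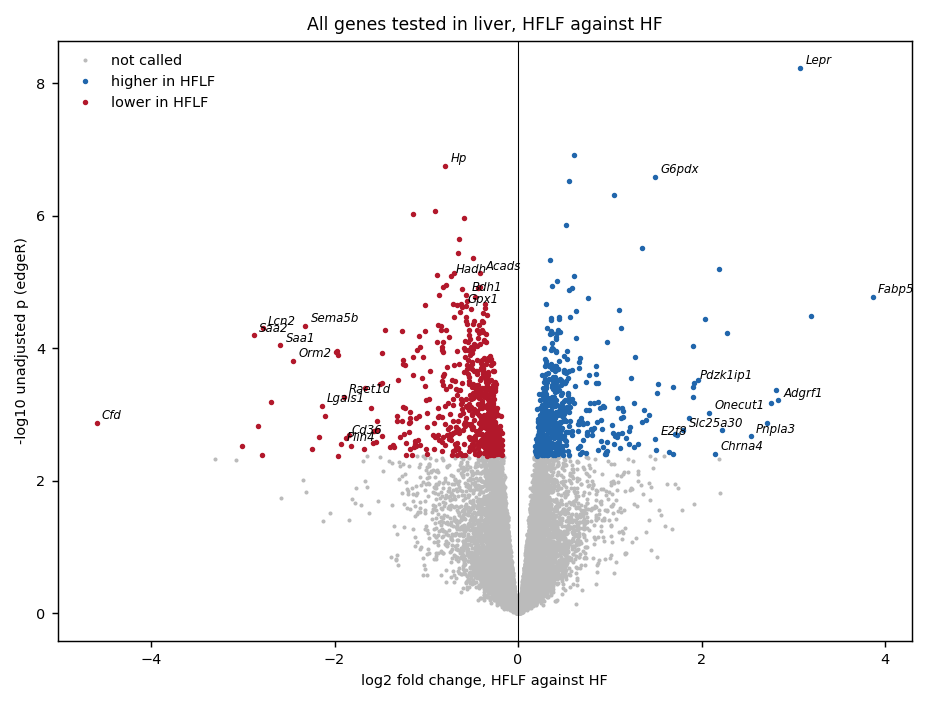
Log2 fold change (x axis) against -log10 of the unadjusted p from edgeR (y axis) for the 14052 genes, with genes that rose in blue, genes that fell in red and the rest in grey. Lepr has the smallest p of all genes, and Cfd and Fabp5 have the largest changes among the genes labelled.

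Genes of lipid uptake and lipid droplets had mostly negative log2 fold changes after diet return, in bulk tissue that does not show which cells held them. In that list, 1 of 26 genes measured rose, 7 fell and 18 did not pass, and 18 had a log2 fold change below 0, with a median of -0.22. Cd36, a fatty acid transporter of the cell surface, stood at 31.6, 102 and 228 CPM in HF and at 12.9, 27.2 and 44.8 CPM in HFLF. Cd36 fell (log2 fold change -1.88 ± 0.47, adjusted p = 0.037). HF library 1 was the highest of all, and HF libraries 5 and 6 (31.6 and 32.7 CPM) lay inside the HFLF range. The HF livers held 15.9, 62.2 and 145 CPM of Plin4, a perilipin, and the HFLF livers 8.43, 16.4 and 27.8 CPM. Plin4 fell (log2 fold change -1.93 ± 0.50, adjusted p = 0.0413). The same 2 HF libraries overlapped with HFLF for Plin4. The intracellular fatty acid binding protein Fabp2 fell from a median of 119.9 to 73.3 CPM (-0.66 ± 0.15, adjusted p = 0.0202), and so did Slc27a4, a fatty acid transport protein with acyl-CoA synthetase activity, from 53.9 to 42.9 CPM (-0.34 ± 0.06, adjusted p = 0.00843). All 6 HFLF libraries lay below all 6 HF libraries for Slc27a4, by a small margin. Among the other falls were those of Fabp4 (-0.99) and Fitm1, a protein of lipid droplet formation (-1.23). Fabp4 and Fitm1 were chosen after their values were seen. Fitm1 overlaps the predicted gene Gm15932 on the other strand.

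Cidec, which enlarges lipid droplets, stood at 5.92, 19.3 and 153 CPM in HF and 6.41, 9.19 and 13.2 CPM in HFLF. It did not pass (-2.34 ± 0.74, adjusted p = 0.0766). HF libraries 2 to 6 ranged from 5.92 to 78.8 CPM beside 153 CPM in library 1. Plin2, the perilipin that marks droplets in many cell types, did not pass (0.13 ± 0.21, adjusted p = 0.742), with medians of 579 and 576 CPM. Cd36 did not pass without HF libraries 1 to 4 or HFLF libraries 1 or 3 to 6 (-1.98 to -1.53), and Plin4 did not pass without HF libraries 1 to 4 or HFLF libraries 1 to 4 or 6 (-1.99 to -1.53). HF libraries 1 and 4 were the highest for Cd36, Plin4 and Cidec. Fabp4 did not pass without HF libraries 3 or 4 or HFLF libraries 1 or 3 to 5 (-1.04 to -0.93), and Fitm1 did not pass without HF libraries 1 to 4 or HFLF libraries 1 to 6 (-1.35 to -1.06). In the lipid droplet and uptake list 2 to 4 fell without HF libraries 1 to 4 or HFLF libraries 1 or 3 to 6, and 11 fell without HF library 5.

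Fabp5, a fatty acid binding protein at chr3:10012548-10016607 of GRCm38, moved the other way and was the largest rise. It stood at 2.96, 8.42 and 18.6 CPM in HF and at 36.7, 136 and 244 CPM in HFLF. Fabp5 rose (log2 fold change 3.87 ± 0.51, adjusted p = 0.00695). The groups did not overlap, and HFLF library 2 was the lowest HFLF library at 36.7 CPM. The LF livers held 36.7 to 192 CPM. Fabp5 is also made by macrophages. The macrophage list that holds it is described further below.

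Of the triglyceride synthesis enzymes, 0 of 13 genes measured rose, 2 fell and 11 did not pass, with a median of -0.11. Both falls were of low genes. Mogat1, which acylates monoacylglycerol, stood at 0.429, 1.62 and 7.63 CPM in HF and 0.237, 0.451 and 0.606 CPM in HFLF (-2.83 ± 0.74, adjusted p = 0.0306). Gpat3, a glycerol-phosphate acyltransferase, fell from a median of 9.58 to 4.71 CPM (-1.09). The groups overlapped for both. Mogat1 did not pass without HF libraries 1, 2 or 4 or HFLF libraries 1 or 3 to 6 (-2.92 to -2.38), and Gpat3 did not pass without HF libraries 1 to 4 or HFLF libraries 1 or 3 to 6 (-1.16 to -0.91). With limma voom, Mogat1 did not pass (adjusted p = 0.076). Gpat3 did not pass in 1 model that also held the LF livers (adjusted p = 0.0797).

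Of the fatty acid oxidation and ketogenesis enzymes, 0 of 31 genes measured rose, 10 fell and 21 did not pass, and the median was -0.25. Of its 31 members, 27 had a log2 fold change below 0, and the values ran from -0.82 to 0.17. Hadh, the mitochondrial short-chain hydroxyacyl-CoA dehydrogenase, stood at 354, 501 and 523 CPM in HF and at 253, 287 and 303 CPM in HFLF. Hadh fell (log2 fold change -0.73 ± 0.11, adjusted p = 0.00548). HF libraries 5 and 6 (354 and 388 CPM) were the lowest of their group, yet stayed above every HFLF library. The HF livers held 216, 233 and 253 CPM of Acads, the short-chain acyl-CoA dehydrogenase, and the HFLF livers 172, 178 and 182 CPM. Acads fell (log2 fold change -0.41 ± 0.06, adjusted p = 0.00548). The 6 values of each group were close together and did not overlap. For Bdh1, which makes the ketone body beta-hydroxybutyrate, the HF values were 332, 435 and 465 CPM and the HFLF values 263, 289.9 and 301 CPM. Bdh1 fell (log2 fold change -0.56 ± 0.09, adjusted p = 0.00695). Here too the groups did not overlap. Eci1, an enoyl-CoA isomerase needed for unsaturated fatty acids, fell as well (-0.51 ± 0.10, adjusted p = 0.0116), and HF library 5 (154 CPM) lay below HFLF library 4 (161 CPM). These 4 genes passed with each of the 12 libraries left out. The other 6 that fell had log2 fold changes of -0.49 to -0.24. HF libraries 5 and 6 were the lowest HF libraries for Hadh, Bdh1 and Eci1. Leaving out 1 library at a time gave 7 to 15 falls in the list. Bdh1 overlaps the predicted gene Gm15743 on the other strand, and no source used here gives the strand that was counted.

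Neither the entry step nor the regulator passed the test. Cpt1a, which brings long-chain fatty acids into mitochondria, stood at 553, 628 and 751 CPM in HF and 589, 669 and 811 CPM in HFLF and did not pass (0.07 ± 0.09, adjusted p = 0.648). Ppara did not pass either (0.22 ± 0.14, adjusted p = 0.338), nor did Ppargc1a, a coactivator of mitochondrial genes (0.25 ± 0.17, adjusted p = 0.373). Among PPARalpha targets outside the oxidation list, 0 of 19 genes measured rose, 1 fell and 18 did not pass, with a median of 0.06. The 1 that fell was Aldh3a2, a fatty aldehyde dehydrogenase, from 414, 724 and 872 CPM in HF to 225, 311 and 414 CPM in HFLF (-1.10 ± 0.20, adjusted p = 0.0117). HF library 5 and HFLF library 2 met at 414 CPM, and the other libraries did not overlap. Vnn1, a pantetheinase, had a similar size of difference and missed the threshold (-1.04 ± 0.29, adjusted p = 0.0502). In the list 1 rose without HF library 5, 2 fell without HF library 5 and 3 fell without HF library 6.

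**Figure D4:**
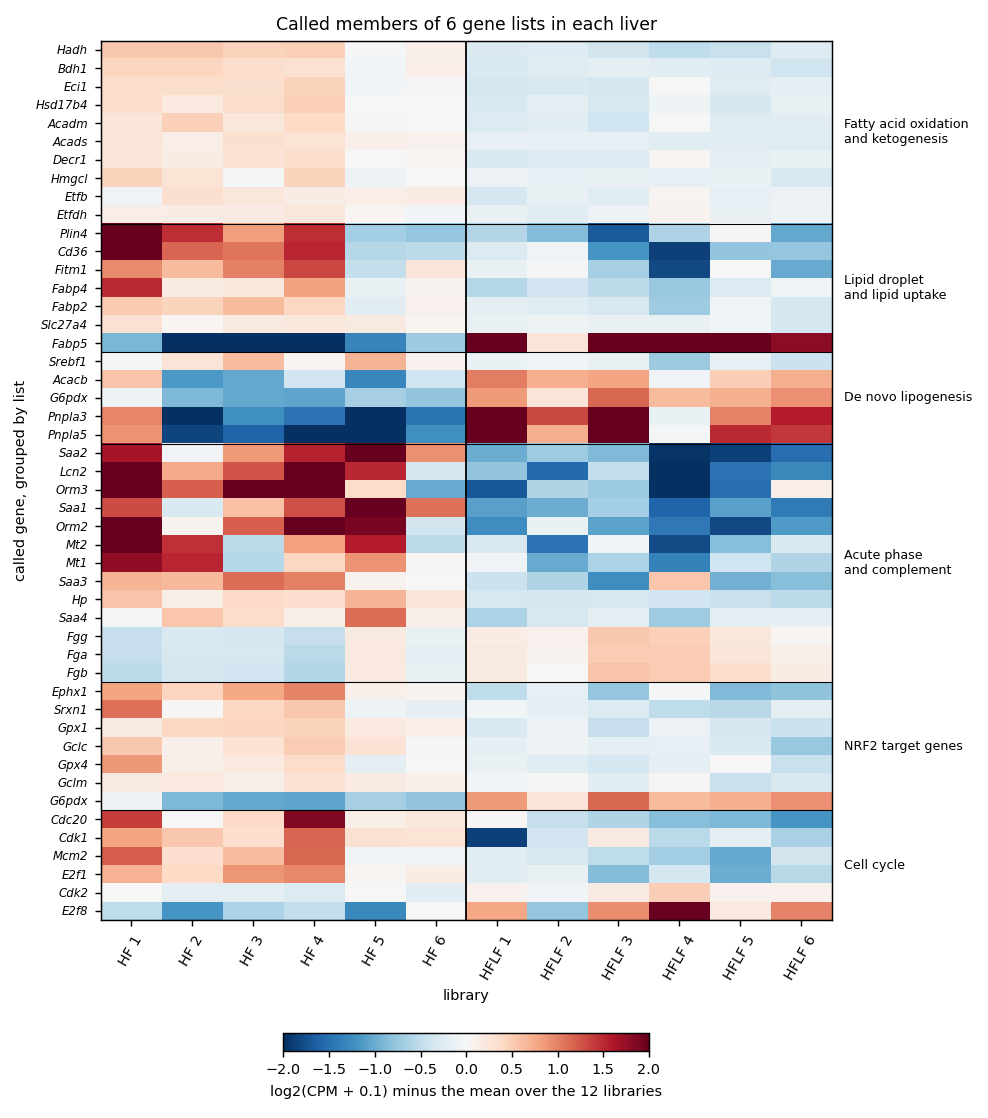
Called members of 6 gene lists, 1 gene not shown (rows, 1 per gene and list) in the 12 liver libraries (columns, HF left and HFLF right of the line), as log2(CPM + 0.1) minus the mean over the 12 libraries, red for above and blue for below, with colours full at 2 and beyond. Oxidation genes in HF libraries 5 and 6 are paler than in HF libraries 1 to 4, while Saa1 and Saa2 are darkest in HF library 5.

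Some lipogenic genes rose after diet return, while Srebf1 fell. In the de novo lipogenesis list, 4 of 24 genes measured rose, 1 fell and 19 did not pass, with a median of 0.33, and 17 of 24 had a log2 fold change above 0. G6pdx, the first enzyme of the pentose phosphate pathway, which supplies NADPH for fatty acid synthesis, stood at 3.3, 3.85 and 6.48 CPM in HF and at 8.38, 12 and 15.6 CPM in HFLF. G6pdx rose (log2 fold change 1.50 ± 0.17, adjusted p = 0.000832). The groups did not overlap. G6pdx overlaps Ikbkg on the other strand. The strand that was counted is not given, so reads of the shared stretch may not be told apart. The HF livers held 0.247, 0.934 and 5.54 CPM of Pnpla3, a lipid droplet protein induced by feeding on carbohydrate, and the HFLF livers 2.52, 7.79 and 16.5 CPM. Pnpla3 rose (log2 fold change 2.53 ± 0.65, adjusted p = 0.0361). HF library 1 (5.54 CPM) lay within the HFLF range, and the other HF libraries lay below it. Pnpla5, its relative, rose from a median of 0.224 to 2.81 CPM (2.72 ± 0.69, adjusted p = 0.0295). Acacb, which makes the malonyl-CoA that inhibits Cpt1a, rose from 158 to 416 CPM (1.11 ± 0.30, adjusted p = 0.0438). Acacb was chosen after its values were seen.

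Srebf1, the transcription factor that drives lipogenic genes under insulin, was lower. It stood at 452, 518 and 736 CPM in HF and 276, 409 and 441 CPM in HFLF. Srebf1 fell (log2 fold change -0.58 ± 0.15, adjusted p = 0.0298). The groups did not overlap. Scd1, Acaca and Fasn, main enzymes of the pathway, did not pass. Scd1, the stearoyl-CoA desaturase, stood at 2554, 4501 and 17537 CPM in HF and 12728, 17909 and 20296 CPM in HFLF (1.44 ± 0.40, adjusted p = 0.0505). HF library 1 (17537 CPM) was as high as the HFLF libraries, while the other 5 HF libraries held 2554 to 6069 CPM. The values for Acaca, the acetyl-CoA carboxylase of synthesis, were 0.65 ± 0.19, adjusted p = 0.055, and those for Fasn, the fatty acid synthase, were 0.48 ± 0.28, adjusted p = 0.309. Pnpla3 did not pass without HF libraries 2 to 4 or 6 or HFLF libraries 1, 3 or 6 (2.29 to 2.55), and Pnpla5 did not pass without HF libraries 2 to 4 or HFLF libraries 1, 3, 5 or 6 (2.47 to 2.77). Srebf1 did not pass without HF libraries 2 or 3 or HFLF libraries 3 to 6 (-0.60 to -0.50), and Acacb did not pass without HF libraries 2 to 4 or 6 or HFLF libraries 1 to 3, 5 or 6 (1.02 to 1.14). In the list, 1 to 2 rose without HF libraries 2 to 4 or 6 or HFLF libraries 1, 3, 5 or 6, and 0 fell without HF libraries 2 or 3 or HFLF libraries 3 to 6. Srebf1 did not pass in 1 model that also held the LF livers (adjusted p = 0.193). Srebf1 overlaps Rai1 on the other strand.

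In the cholesterol synthesis and uptake list, 0 of 25 genes measured rose, 2 fell and 23 did not pass. The median was -0.26, and 8.0% were called. 20 of 25 members had a log2 fold change below 0. Hmgcs1, which makes HMG-CoA, did not pass (-1.10 ± 0.38, adjusted p = 0.0973). In the bile acid list, 2 of 26 genes measured rose, 1 fell and 23 did not pass (11.5% called), with a median of -0.04. Abcb11, the pump that exports bile salts into bile, stood at 384, 436 and 534 CPM in HF and at 577, 646 and 727 CPM in HFLF. Abcb11 rose (log2 fold change 0.50 ± 0.10, adjusted p = 0.0151). Every HFLF library lay above every HF library. Slc10a1, which takes bile salts up from blood, rose from a median of 546 to 737 CPM (0.42 ± 0.10, adjusted p = 0.0254). For Cyp8b1, the sterol 12-alpha-hydroxylase that sets the share of cholic acid, the HF values were 301, 478 and 561 CPM and the HFLF values 249.5, 323 and 352 CPM. Cyp8b1 fell (log2 fold change -0.62 ± 0.14, adjusted p = 0.0231). HF library 5 was the lowest HF library for Cyp8b1 and lay within the HFLF range. Cyp7a1, which sets the rate of bile acid synthesis, ranged from 21 to 139.7 CPM in HF and from 26.9 to 125 CPM in HFLF and did not pass (-0.05 ± 0.55, adjusted p = 0.965). In the cholesterol list 1 rose without HF library 6, and in the bile acid list 2 fell without HF libraries 5 or 6 and 3 fell without HFLF library 2. Slc10a1 did not pass without HF library 4 or HFLF library 6 (0.38 to 0.39), and Cyp8b1 did not pass without HF libraries 2 or 4 or HFLF library 6 (-0.57 to -0.56). Slc10a1 did not pass in 1 model that also held the LF livers (adjusted p = 0.0587).

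Lepr, the receptor of the fat hormone leptin, had the smallest p of all genes. It lies at chr4:101717404-101815352 of GRCm38. Lepr stood at 1.82, 2.14 and 4.15 CPM in HF and at 12.9, 20.6 and 30.8 CPM in HFLF. Lepr rose (log2 fold change 3.07 ± 0.23, adjusted p = 8.27e-05). The highest HF library, library 1, held 4.15 CPM and the lowest HFLF library 12.9 CPM, so the groups were far apart. LF livers held 5.5 to 24.9 CPM. In the insulin and gluconeogenesis list, 2 of 21 genes measured rose, 0 fell and 19 did not pass. The median was 0.07, and 9.52% were called, beside 8.40% of all genes. For Irs2, an insulin receptor substrate, the HF values were 20.3, 23.9 and 36.4 CPM and the HFLF values 36.8, 41 and 45.4 CPM. Irs2 rose (log2 fold change 0.67 ± 0.13, adjusted p = 0.0148). Insr, the insulin receptor, rose by a small amount, from 113 to 131 CPM (0.21 ± 0.06, adjusted p = 0.0452). The groups did not overlap for either gene. In the list 1 fell without HFLF library 5. Insr did not pass without HF libraries 1 to 4 or HFLF libraries 1, 2 or 4 to 6 (0.18 to 0.22). Irs2 and Insr did not pass in 1 model that also held the LF livers (adjusted p = 0.0782 to 0.178).

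Igfbp1, an insulin-repressed binding protein of insulin-like growth factors, did not pass (0.51 ± 0.34, adjusted p = 0.371), and G6pc, the glucose-6-phosphatase, stood at 0.99 ± 0.34, adjusted p = 0.0962. In the glycolysis, fructose and glycogen list, 0 of 22 genes measured rose, 2 fell and 20 did not pass. The median was -0.10, and 9.09% were called. The falls were Ldha, a lactate dehydrogenase, from 1021 to 717 CPM (-0.41 ± 0.10, adjusted p = 0.0242), and Pfkl, the liver phosphofructokinase, from 56.7 to 48 CPM (-0.29 ± 0.07, adjusted p = 0.0247). Both overlapped between the groups. Ldha did not pass without HF libraries 3 or 4 or HFLF library 6 (-0.40 to -0.37), and Pfkl did not pass without HF libraries 2 to 4 (-0.29 to -0.27). Ldha did not pass in 1 model that also held the LF livers (adjusted p = 0.0728).

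Among secreted hormones and hepatokines, 1 of 28 genes measured rose, 2 fell and 25 did not pass (10.7% called), with a median of -0.12. Inhba, which encodes a subunit of activin A, rose from 5.18, 9.52 and 12.3 CPM in HF to 11.8, 21.8 and 32.6 CPM in HFLF (1.23 ± 0.24, adjusted p = 0.0168). Tsku, a secreted tsukushi proteoglycan, fell from a median of 119 to 48.8 CPM (-1.25 ± 0.28, adjusted p = 0.0241), and Lect2, a secreted chemotactic protein, from 132 to 91.2 CPM (-0.69 ± 0.18, adjusted p = 0.0336). Lect2 did not overlap between groups, while the other two did. Fgf21, the fasting hormone, ranged from 2.49 to 14.8 CPM in HF and from 3.39 to 22.1 CPM in HFLF and did not pass (0.38 ± 0.52, adjusted p = 0.688). Gdf15, a stress hormone, had a larger difference that missed the threshold (-1.69 ± 0.49, adjusted p = 0.0539). In the list 2 rose without HF library 1, 3 rose without HF library 6 and 4 fell without HF library 5. Tsku did not pass without HF libraries 3 or 4 (-1.21 to -1.15), and Lect2 did not pass without HF libraries 2 to 4 or 6 or HFLF libraries 3, 5 or 6 (-0.73 to -0.59).

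The remaining large rises fell in no list. Adgrf1, an adhesion G protein-coupled receptor, stood at 0.594, 1.01 and 6.93 CPM in HF and 7.17, 14.8 and 32.6 CPM in HFLF (2.83 ± 0.60, adjusted p = 0.0218). HF libraries 5 and 6 were its highest HF libraries, below every HFLF library. Chrna4, a nicotinic acetylcholine receptor subunit, stood at 3.88, 7 and 43.4 and 14.8, 64.4 and 98.9 CPM (2.15 ± 0.58, adjusted p = 0.048), with HF library 1 far above the other 5. Onecut1, the hepatocyte transcription factor also called HNF6, stood at 3.94, 12.1 and 17.5 and 9.09, 48.5 and 94 CPM (2.08 ± 0.47, adjusted p = 0.0258). HFLF library 2 (9.09 CPM) lay within the HF range for Onecut1, and so it did for Slc25a30, a mitochondrial carrier that rose by 1.80 ± 0.43 (adjusted p = 0.0326). Pdzk1ip1, a small membrane protein, rose from a median of 1.75 to 10.5 CPM (1.92 ± 0.39, adjusted p = 0.0172), with HF library 1 inside the HFLF range. Pdzk1ip1 passed with each library left out. Adgrf1 did not pass without HF libraries 2 or 4 (2.62 to 2.71), and Chrna4 did not pass without HF libraries 2 to 6 or HFLF libraries 1 to 3, 5 or 6 (1.96 to 2.23). Onecut1 did not pass without HF libraries 1 to 4 or HFLF library 6 (1.78 to 2.19), and Slc25a30 did not pass without HF libraries 1, 2 or 4 or HFLF libraries 4 or 6 (1.51 to 1.84). Onecut1 and Slc25a30 did not pass in 1 model that also held the LF livers (adjusted p = 0.053 to 0.08).

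Cfd, which encodes adipsin, the complement factor D secreted mainly by adipocytes, was the largest fall. It lies at chr10:79890853-79892655 of GRCm38. For Cfd the HF values were 1.46, 13.1 and 77.8 CPM and the HFLF values 0.0789, 0.769 and 2.58 CPM. Cfd fell (log2 fold change -4.59 ± 1.18, adjusted p = 0.0292). HF libraries 5 and 6 (1.46 and 1.47 CPM) lay within the HFLF range, and HF library 4 was the highest. Of 6 adipocyte markers only Lipe was among the genes analysed here. It stood at 28.5 to 39.7 CPM in HF and 23.8 to 31.4 CPM in HFLF. edgeR did not call Lipe, although its unadjusted p was under 0.05. The part of adipocyte RNA in the fall of Cfd was not tested. Sema5b, a semaphorin guidance protein, stood at 6.17, 15 and 23.3 CPM in HF and 1.58, 2.34 and 4.24 CPM in HFLF (-2.32 ± 0.38, adjusted p = 0.00921). Its groups did not overlap, and LF livers held 0.324 to 2.5 CPM. Raet1d, a ligand of the NKG2D receptor of natural killer cells, fell from a median of 7.71 to 2.78 CPM (-1.90 ± 0.41, adjusted p = 0.0208). Raet1d shares exon sequence with Raet1e on 1 strand, which makes the split of reads between them uncertain. Cfd did not pass without HF libraries 1, 3 or 4 or HFLF libraries 2, 4 or 6 (-4.61 to -3.64). With limma voom, Cfd did not pass (adjusted p = 0.172). Cfd and Raet1d did not pass with the replicate numbers fitted as a block (adjusted p = 0.106 and 0.0637).

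Acute-phase genes of the serum amyloid, orosomucoid, lipocalin and metallothionein families fell together, while the fibrinogen genes rose. Of acute phase and complement genes, 3 of 34 genes measured rose, 10 fell and 21 did not pass, with a median of -0.23. HF and HFLF libraries did not overlap for 6 of the 34, beside 3.92% of all genes. The falls were those of Saa1, Saa2, Saa3, Saa4, Orm2, Orm3, Lcn2, Hp, Mt1 and Mt2, and the rises those of Fga, Fgb and Fgg. The promoters of 5 of the genes that fell most are shown because these genes moved together. Each is the 250 bases before the start of transcription, 5′ to 3′ on the gene's strand, from RefSeq on GRCm38.p6. Capitals mark TTNNGNAA on either strand, where N is any base, a form of the motif bound by C/EBP factors.
Saa1: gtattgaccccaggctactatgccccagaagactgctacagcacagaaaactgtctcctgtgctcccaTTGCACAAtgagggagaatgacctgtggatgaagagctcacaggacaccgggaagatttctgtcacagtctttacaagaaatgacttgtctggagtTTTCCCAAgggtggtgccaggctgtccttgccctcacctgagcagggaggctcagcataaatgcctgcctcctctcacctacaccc
Saa2: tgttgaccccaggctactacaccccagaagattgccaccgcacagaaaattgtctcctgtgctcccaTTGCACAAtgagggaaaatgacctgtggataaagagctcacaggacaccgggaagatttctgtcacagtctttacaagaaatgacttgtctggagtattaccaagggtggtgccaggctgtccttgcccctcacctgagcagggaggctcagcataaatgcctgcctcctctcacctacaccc
Lcn2: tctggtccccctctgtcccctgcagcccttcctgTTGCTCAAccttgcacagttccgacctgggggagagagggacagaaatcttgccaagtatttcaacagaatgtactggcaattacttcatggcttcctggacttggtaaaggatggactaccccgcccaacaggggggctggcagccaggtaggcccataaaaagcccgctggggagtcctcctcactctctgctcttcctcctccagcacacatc
Orm2: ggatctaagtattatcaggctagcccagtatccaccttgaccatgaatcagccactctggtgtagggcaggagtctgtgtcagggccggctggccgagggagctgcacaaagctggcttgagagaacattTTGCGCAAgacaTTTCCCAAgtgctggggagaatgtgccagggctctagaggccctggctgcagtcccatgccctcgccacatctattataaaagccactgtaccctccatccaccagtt
Orm3: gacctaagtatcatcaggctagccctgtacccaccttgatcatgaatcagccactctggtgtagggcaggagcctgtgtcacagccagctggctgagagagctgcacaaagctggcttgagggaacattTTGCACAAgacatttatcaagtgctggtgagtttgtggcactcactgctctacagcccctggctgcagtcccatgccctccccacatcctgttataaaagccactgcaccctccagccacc

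The windows lie at chr7:46742981-46743230 (minus strand) for Saa1, chr7:46751583-46751832 (plus strand) for Saa2, chr2:32387740-32387989 (minus strand) for Lcn2, chr4:63362199-63362448 (plus strand) for Orm2 and chr4:63355908-63356157 (plus strand) for Orm3. The Saa1 and Saa2 windows agree at 238 of 251 aligned positions (94.8%), and those of Orm2 and Orm3 at 218 of 255 (85.5%). Promoters were listed for 9 of the 10 acute-phase genes that fell, and 8 of these 9 hold TTNNGNAA, as do 36.8% of the 32851 windows of all promoters. The 9 were picked on this same contrast and include paralogs with alike windows, so their share is a description and not a test. None of the 9 holds TTCNNNGAA, the form bound by STAT factors, or the NF-kB consensus in this window, which 7.02% and 7.25% of all windows hold. Of the 3 acute-phase genes that rose, 2 hold TTNNGNAA and 2 hold TTCNNNGAA, in both cases Fga and Fgb, so TTNNGNAA stood in windows of genes of either direction. A match describes the letters and shows no binding. These windows lie before the transcripts, and the likeness of the transcripts was not measured here. Paralogs can share reads, so the split between Saa1 and Saa2, between Orm2 and Orm3 and between Mt1 and Mt2 is uncertain.

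Saa1, a serum amyloid A, stood at 37.5, 107 and 346 CPM in HF and at 15.2, 21.9 and 29 CPM in HFLF. Saa1 fell (log2 fold change -2.59 ± 0.42, adjusted p = 0.0112). For Saa2, its neighbour, the HF values were 23.9, 60.4 and 206 CPM and the HFLF values 6.39, 10.6 and 15.3 CPM. Saa2 fell (log2 fold change -2.88 ± 0.46, adjusted p = 0.0096). HF library 5 was the highest HF library for both, at 346 and 206 CPM, and HF library 2 the lowest. Neither gene overlapped between the groups. The HF livers held 4.11, 13.9 and 31.1 CPM of Lcn2, lipocalin 2, which binds bacterial iron carriers, and the HFLF livers 1.1, 1.96 and 3.76 CPM. Lcn2 fell (log2 fold change -2.78 ± 0.45, adjusted p = 0.00933). HF library 6 was the lowest of its group and still above every HFLF library. Orm2, an orosomucoid, stood at 3.23, 12.9 and 17.4 CPM in HF and at 1.14, 1.8 and 3.84 CPM in HFLF. Orm2 fell (log2 fold change -2.45 ± 0.45, adjusted p = 0.0135). HFLF library 2 (3.84 CPM) exceeded HF library 6 (3.23 CPM). For Hp, haptoglobin, which binds free haemoglobin, the HF values were 3085, 3627 and 4526 CPM and the HFLF values 1976, 2204 and 2278 CPM. Hp fell (log2 fold change -0.80 ± 0.09, adjusted p = 0.000819). Hp had the smallest p of the list, and its groups did not overlap. All 5 genes passed with each of the 12 libraries left out. Saa2 and Orm2 did not pass with the replicate numbers fitted as a block (adjusted p = 0.052 and 0.0576).

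The 2 metallothionein genes fell from medians of 28.6 and 5.57 CPM to 11.7 and 1.6 CPM (-1.54 and -1.84), and Saa3, Saa4 and Orm3 fell with log2 fold changes of -1.18, -0.79 and -2.69. The groups overlapped for 4 of these 5, Saa4 being the exception. These 5 genes were chosen after their values were seen. 6 of the list fell without HF library 4. Mt1 did not pass without HF libraries 1, 2 or 4 or HFLF libraries 2 or 4 to 6 (-1.61 to -1.30), and Mt2 did not pass without HF libraries 1, 2 or 4 or HFLF libraries 1, 2 or 4 to 6 (-1.93 to -1.57). Saa3 did not pass without HF libraries 2 to 4 or HFLF libraries 3, 5 or 6 (-1.16 to -1.05), and Saa4 did not pass without HF library 2 (-0.75). Orm3 did not pass without HF library 4 (-2.58). It is a low gene, at 0.47, 3.53 and 6.23 CPM in HF and 0.0789, 0.444 and 1.15 CPM in HFLF. Mt2 overlaps the predicted gene Gm45774 on the other strand.

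The 3 fibrinogen chain genes, neighbours on chromosome 3, rose alike. Fga stood at 3188, 3709 and 5285 CPM in HF and 4859, 5341 and 6598 CPM in HFLF (0.51 ± 0.12, adjusted p = 0.0254), Fgb at 0.56 ± 0.13, adjusted p = 0.0254 and Fgg at 0.49 ± 0.12, adjusted p = 0.0287. HF library 5 was the highest HF library for all 3. It was also the highest for Saa1, Saa2, Saa4 and Hp. The fibrinogen genes were chosen after their values were seen. Fga did not pass without HF libraries 2 to 4 or HFLF libraries 3 or 4 (0.46 to 0.51), and Fgb did not pass without HF libraries 2 to 4 or HFLF library 3 (0.50 to 0.55). Fgg did not pass without HF libraries 2 to 4 or HFLF libraries 3 to 5 (0.43 to 0.49).

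The LF livers fell into separate ranges for these genes. LF libraries 1 to 4 held 988, 1777, 3481 and 2926 CPM of Saa1, while LF libraries 5 and 6 held 28 and 15 CPM. Lcn2 stood at 47.2, 162, 281 and 211 CPM in the first 4 and at 3.19 and 1.26 CPM in the last 2. The HFLF livers held 15.2 to 29 CPM of Saa1, all below LF libraries 1 to 4, and HFLF library 3 was the 1 that lay above LF library 5. With limma voom, Mt1 and Mt2 did not pass (adjusted p = 0.0611 to 0.0806). Saa1, Saa2, Lcn2, Orm2, Hp, Mt1, Mt2, Saa3, Saa4, Orm3, Fga, Fgb and Fgg did not pass in 1 model that also held the LF livers (adjusted p = 0.0504 to 0.438).

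Of the interferon-induced genes, 0 of 38 genes measured rose, 5 fell and 33 did not pass, with a median of -0.17, so 13.2% were called beside 8.40% of all genes. Among the falls were Psmb9, a subunit of the immunoproteasome (-0.63 ± 0.14, adjusted p = 0.0184), Isg15, a ubiquitin-like protein (-0.66 ± 0.17, adjusted p = 0.032), Irgm1 (-0.27) and Ifi35 (-0.24), the last chosen after its values were seen. The groups overlapped for all 4 of these. Psmb9 stood at 23.1, 28.5 and 32.3 CPM in HF and 13.3, 18.3 and 25.5 CPM in HFLF, and overlaps Tap1 on the other strand. In the list 1 to 3 fell without HF libraries 1 to 4 or HFLF libraries 4 to 6, and 0 fell in 1 model that also held the LF livers. Isg15 did not pass without HF libraries 2 to 4 or HFLF libraries 4 to 6 (-0.68 to -0.57), and Irgm1 did not pass without HF libraries 2 to 4 or HFLF libraries 4 to 6 (-0.28 to -0.23). Ifi35 did not pass without HF libraries 1 to 4 or 6 or HFLF libraries 1 to 6 (-0.27 to -0.19). Psmb9, Isg15, Irgm1 and Ifi35 did not pass in 1 model that also held the LF livers (adjusted p = 0.0844 to 0.361).

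In the Kupffer cell list, 0 of 14 genes measured rose, 0 fell and 14 did not pass, with a median of -0.15. The 8 Kupffer cell markers summed to 219 to 395 CPM in HF and 227 to 372 CPM in HFLF. None of the list was called by DESeq2 or limma voom, and edgeR gave 3 of them an unadjusted p under 0.05, while in edgeR 1 fell without HF library 6 or HFLF library 1. Marco, a scavenger receptor, spanned 1.76 to 44 CPM in HF and 1.82 to 10.9 CPM in HFLF (-1.62 ± 0.66, adjusted p = 0.146). In the list of lipid-associated and recruited macrophage genes, 2 of 18 genes measured rose, 0 fell and 16 did not pass. The median was -0.20, and 11.1% were called. The rises were Fabp5 and Cd9, a tetraspanin, which stood at 8.71, 11.3 and 24 CPM in HF and 20.8, 24.3 and 33.5 CPM in HFLF (0.94 ± 0.21, adjusted p = 0.0239). Fabp5 and Cd9 are also made by other cells, and the other 16 genes of the list did not pass, among them Lgals3 (-0.33 ± 0.20, adjusted p = 0.311) and Mmp12 (-1.32 ± 0.83, adjusted p = 0.331). Cd9 did not pass without HF library 4 (0.94). Summed markers of neutrophils were 2.11 to 4.9 CPM in HF and 2.32 to 4.15 CPM in HFLF, those of T and natural killer cells 1.38 to 3.3 and 1.97 to 4.41 CPM, and those of B and plasma cells 2.63 to 7.02 and 3.27 to 14.6 CPM. Only 2 of 6 neutrophil markers, 2 of 8 T and natural killer cell markers and 5 of 6 B and plasma cell markers were among the genes analysed here. edgeR called none of them, and 1 had an unadjusted p under 0.05.

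In the collagen and stellate cell list, 0 of 26 genes measured rose, 1 fell and 25 did not pass, with a median of -0.20. The fall was that of Lgals1, galectin 1, which stood at 11.6, 40.1 and 83.5 CPM in HF and 6.06, 9.16 and 14.3 CPM in HFLF (-2.14 ± 0.46, adjusted p = 0.0236). HF libraries 5 and 6 (11.6 and 14 CPM) lay within the HFLF range. Col3a1, a collagen chain of fibrous tissue, did not pass, with 27 to 124 CPM in HF and 21 to 58.7 CPM in HFLF (-0.72 ± 0.41, adjusted p = 0.296). The 8 stellate cell markers summed to 225 to 559.7 CPM in HF and 236 to 364 CPM in HFLF, and none was called. Of 8 sinusoidal endothelial markers 1 was called, the Fc receptor gene Fcgr2b, which rose (0.37 ± 0.10, adjusted p = 0.034) and was chosen after its values were seen. edgeR called no marker of cholangiocytes, mesothelial cells, exocrine pancreas or erythroid cells, and 2 of their 18 measured markers had an unadjusted p under 0.05. Lgals1 did not pass without HF library 4 or HFLF libraries 4 or 6 (-2.04 to -1.95). Fcgr2b did not pass without HF libraries 1, 3 or 4 or HFLF libraries 1, 2 or 6 (0.325 to 0.373). Fcgr2b did not pass in 1 model that also held the LF livers (adjusted p = 0.0666).

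Among antioxidant genes that NRF2 is known to control, 1 of 22 genes measured rose, 6 fell and 15 did not pass, with a median of -0.33. Gpx1, a glutathione peroxidase, stood at 1507, 1708 and 1879 CPM in HF and at 1004, 1102 and 1276 CPM in HFLF. Gpx1 fell (log2 fold change -0.61 ± 0.10, adjusted p = 0.00762). The HF livers held 277, 403 and 524 CPM of Ephx1, the microsomal epoxide hydrolase, and the HFLF livers 143, 170.1 and 259.8 CPM. Ephx1 fell (log2 fold change -1.07 ± 0.19, adjusted p = 0.0115). For Gclc, the catalytic subunit that starts glutathione synthesis, the HF values were 223, 276 and 328 CPM and the HFLF values 133, 199.8 and 212 CPM. Gclc fell (log2 fold change -0.58 ± 0.11, adjusted p = 0.0117). None of the 3 overlapped between the groups, and each passed with any 1 library left out. The gene that rose was G6pdx, described above with lipogenesis. The other 3 that fell had log2 fold changes of -0.67 to -0.36. In the list 3 fell without HF library 4. Gclc did not pass in 1 model that also held the LF livers (adjusted p = 0.128).

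Of genes of the unfolded protein and integrated stress responses, 2 of 31 genes measured rose, 0 fell and 29 did not pass, with a median of -0.13. The rises were Ern1, the stress sensor IRE1 (0.48 ± 0.12, adjusted p = 0.0265), and Xbp1, the factor that it splices (0.58 ± 0.15, adjusted p = 0.0334). Xbp1 stood at 145, 227 and 294 CPM in HF and 242, 354 and 427 CPM in HFLF, with overlap. Hspa5, a chaperone of the endoplasmic reticulum, stood at 492, 667 and 1108 and 479, 622 and 1066 CPM and did not pass (-0.02 ± 0.23, adjusted p = 0.969). edgeR, DESeq2 and limma voom each called 0 of the 23 immediate early and heat shock genes, and edgeR gave 5 of them an unadjusted p under 0.05 (median log2 fold change -0.20). In that list 1 fell without HF library 6 and 2 fell without HFLF library 4 in edgeR. In the unfolded protein list 1 fell without HF libraries 1 or 6 and 3 fell without HFLF library 2, and DESeq2 and limma voom each called 2 falls. Ern1 did not pass without HF libraries 2 to 4 or HFLF libraries 4 or 6 (0.43 to 0.50), and Xbp1 did not pass without HF libraries 1, 2 or 4 or HFLF libraries 1, 3, 4 or 6 (0.49 to 0.58). Xbp1 did not pass in 1 model that also held the LF livers (adjusted p = 0.0583).

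Among drug-metabolizing P450 genes and their regulators, 0 of 24 genes measured rose, 2 fell and 22 did not pass (8.33% called). The median was -0.30, and 22 of 24 had a log2 fold change below 0. Cyp1a1, the P450 induced by the aryl hydrocarbon receptor, fell at a low level, from 0.773, 1.02 and 1.37 to 0.158, 0.258 and 0.606 CPM (-1.49 ± 0.33, adjusted p = 0.0173). Cyp2d26, an abundant hepatic P450, fell from a median of 1279.9 to 942 CPM (-0.42 ± 0.09, adjusted p = 0.0198). Neither overlapped between the groups. Nr1i3, the receptor CAR, stood at 131, 146 and 250.0 CPM in HF and 53, 70.7 and 149.9 CPM in HFLF and missed the threshold (-0.96 ± 0.27, adjusted p = 0.0517). Of the conjugating enzymes, 0 of 31 genes measured rose, 1 fell and 30 did not pass, with a median of -0.29, and the fall was that of Ugt2b36, a glucuronosyltransferase (-0.43 ± 0.10, adjusted p = 0.0232). DESeq2 called 4 falls of conjugating enzymes and 5 of P450 genes. Of the conjugating enzymes 2 fell without HF library 1, 3 fell without HFLF library 2 and 6 fell without HF library 5, and of the P450 genes 1 rose without HF library 2 and 6 fell without HFLF library 2. Cyp2d26 did not pass without HF library 4 (-0.41), and Ugt2b36 did not pass without HF libraries 2 to 4 (-0.40 to -0.38). Cyp2d26 did not pass in 1 model that also held the LF livers (adjusted p = 0.0604). P450 and glucuronosyltransferase families hold near copies that can share reads.

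Of the lists of genes that differ by sex in mouse liver, 1 had a share called below the 8.40% of all genes and 1 above it. In the male-biased list, 1 of 21 genes measured rose, 0 fell and 20 did not pass (4.76% called), with a median of 0.38 that ran from 0.19 to 0.52 over the alternatives fitted. In the female-biased list, 0 of 17 genes measured rose, 2 fell and 15 did not pass (11.8% called), with a median of -0.62 that ran from -0.90 to -0.24. Of the male-biased genes 2 rose without HF libraries 5 or 6 and 1 fell without HFLF library 2, and of the female-biased genes 4 fell without HF libraries 5 or 6, with 1 fall without HFLF library 2 and 0 in the other 9 fits. The rise was Elovl3, a fatty acid elongase, from 93.4, 148 and 169.7 to 130.4, 258 and 377 CPM (0.90 ± 0.24, adjusted p = 0.0387). The female-biased genes that fell were Cd36 and Cyp2a22, a low P450 at 0.587, 4.33 and 15 CPM in HF and 0.158, 0.809 and 1.3 CPM in HFLF (-3.01 ± 0.84, adjusted p = 0.0424). The groups overlapped for all 3 of these genes. Elovl3 did not pass without HF libraries 1 to 4 or HFLF libraries 3 to 5 (0.78 to 0.95), and Cyp2a22 did not pass without HF libraries 1 to 4 or HFLF libraries 1 to 6 (-3.21 to -2.57). With limma voom, Cyp2a22 did not pass (adjusted p = 0.126). Elovl3 did not pass in 1 model that also held the LF livers (adjusted p = 0.0961).

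In the urea cycle and amino acid list, 1 of 31 genes measured rose, 2 fell and 28 did not pass. The median was -0.13, and 9.68% were called. Cps1, the first enzyme of the urea cycle and a periportal gene, rose from 1486, 2637 and 3615 CPM in HF to 3287, 4407 and 5519.8 CPM in HFLF (0.75 ± 0.20, adjusted p = 0.0354). Glul, the pericentral glutamine synthetase, fell from 1284, 1558 and 2099 to 931, 1255 and 1342 CPM (-0.43 ± 0.12, adjusted p = 0.0417), and Bckdhb, of branched-chain amino acid breakdown, fell by 0.34 on the log2 scale. Of the pericentral genes, 0 of 15 genes measured rose, 3 fell and 12 did not pass, with a median of -0.15. They were Glul, Slc13a3, a dicarboxylate transporter (-1.14 ± 0.21, adjusted p = 0.0132), and Rhbg, an ammonium transporter (-0.87 ± 0.21, adjusted p = 0.0241). Of the periportal genes, 1 of 15 genes measured rose, 0 fell and 14 did not pass, with a median of 0.10, the rise being Cps1. Slc13a3 stood at 24.7, 38 and 46.3 CPM in HF and 10.9, 17.1 and 24.6 CPM in HFLF, without overlap. Cps1 did not pass without HF libraries 2 to 4 or HFLF libraries 1 to 3, 5 or 6 (0.66 to 0.81), and Glul did not pass without HF libraries 1 to 4 or 6 or HFLF libraries 3 to 6 (-0.45 to -0.35). Bckdhb did not pass without HF libraries 1 to 4 or 6 or HFLF libraries 1 to 6 (-0.37 to -0.27), and Rhbg did not pass without HF libraries 3 or 4 (-0.84 to -0.77). Bckdhb and Rhbg did not pass in 1 model that also held the LF livers (adjusted p = 0.0504 to 0.0728). Glul overlaps Teddm2 on the other strand.

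Of the cell cycle genes, 2 of 28 genes measured rose, 4 fell and 22 did not pass. Their median was -0.79, and it ran from -0.85 to -0.19 over the alternatives fitted. Most of these 28 genes were low, so the median mainly describes low genes. In a refit limited to genes averaging 5 CPM or more, 11 of the list were tested, of which 2 rose and 1 fell. E2f1, the transcription factor that starts DNA synthesis, stood at 5.4, 7.78 and 10.3 CPM in HF and at 2.58, 3.82 and 4.75 CPM in HFLF. E2f1 fell (log2 fold change -1.08 ± 0.20, adjusted p = 0.00974). The HF livers held 4.03, 6.03 and 10 CPM of Mcm2, a subunit of the replication helicase, and the HFLF livers 2.05, 3.15 and 3.69 CPM. Mcm2 fell (log2 fold change -1.15 ± 0.24, adjusted p = 0.0157). Neither gene overlapped between the groups. Cdk1, the kinase of mitosis, fell from 1.17, 1.34 and 2.27 to 0.191, 0.669 and 1.1 CPM (-1.19 ± 0.31, adjusted p = 0.0295), and Cdc20, an activator of mitotic exit, from 0.937, 1.18 and 3.66 to 0.361, 0.528 and 0.955 CPM (-1.60 ± 0.39, adjusted p = 0.0241). Mki67, the proliferation marker, stood at 1.43, 1.89 and 4.3 CPM in HF and 0.866, 1.08 and 1.85 CPM in HFLF and missed the threshold (-1.02 ± 0.31, adjusted p = 0.0517). E2f8, a repressor of the E2F family, rose from 7.12, 11.8 and 17.4 to 10.3, 31.7 and 69.3 CPM (1.49 ± 0.38, adjusted p = 0.0372), and Cdk2, chosen after its values were seen, rose by 0.28 on the log2 scale. HFLF library 2 was the lowest HFLF library for E2f8 and lay within the HF range. The summed T, B and neutrophil markers given above were low in both groups, and the cells that carry the cell cycle transcripts were not tested. In the list 2 fell without HF library 4 or HFLF library 6, and 7 to 9 fell without HF libraries 5 or 6. Cdk1 did not pass without HF libraries 2 to 4 or HFLF libraries 4 or 6 (-1.23 to -1.03), and Cdc20 did not pass without HF library 4 or HFLF library 6 (-1.50 to -1.25). E2f8 did not pass without HF libraries 1 to 4 or HFLF libraries 1, 3, 4 or 6 (1.15 to 1.52), and Cdk2 did not pass without HF libraries 1 to 4 or 6 or HFLF libraries 1 or 3 to 6 (0.21 to 0.29). With limma voom, E2f8 did not pass (adjusted p = 0.054). Cdk1, E2f8 and Cdk2 did not pass in 1 model that also held the LF livers (adjusted p = 0.0632 to 0.113). Cdc20 overlaps Elovl1, and E2f8 the predicted gene Gm2788, on the other strand. edgeR, DESeq2 and limma voom each called 0 of the 20 circadian clock genes, and edgeR gave 4 of them an unadjusted p under 0.05 (median log2 fold change -0.18). In the clock list 1 rose without HF library 5 and 1 fell without HFLF library 6.

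Of the cytosolic ribosomal protein genes, 9 of 69 genes measured rose, 0 fell and 60 did not pass, with a median of 0.22, and 67 of 69 had a log2 fold change above 0. Rps15a stood at 35, 37.6 and 41.1 CPM in HF and 42.5, 44 and 55.5 CPM in HFLF, without overlap (0.30 ± 0.07, adjusted p = 0.0249). Rpl10a stood at 51.6, 60.5 and 69.4 and 66.4, 78.2 and 96.5 CPM, with overlap (0.38 ± 0.10, adjusted p = 0.0322). In the list 0 to 2 rose without HF libraries 1 to 4 or HFLF libraries 3 to 6, and 14 rose without HF library 6. Rps15a did not pass without HF libraries 2 to 4 (0.29 to 0.31), and Rpl10a did not pass without HF libraries 1 to 4 or HFLF libraries 4 to 6 (0.32 to 0.38). Rps15a and Rpl10a did not pass in 1 model that also held the LF livers (adjusted p = 0.0618 to 0.0649). Of the proteasome genes, 0 of 31 genes measured rose, 3 fell and 28 did not pass (9.68% called), with a median of -0.09. The falls were Psmc4 (-0.26 ± 0.05, adjusted p = 0.0151), Psmd14 (-0.29 ± 0.06, adjusted p = 0.0184) and Psmd13 (-0.17), subunits of the regulatory particle. Of the nuclear genes of oxidative phosphorylation, 0 of 61 genes measured rose, 2 fell and 59 did not pass, with a median of -0.10, the falls being Ndufa10 (-0.26) and Ndufb3 (-0.26) of complex I. Leaving out 1 library at a time gave 0 to 12 falls there: 12 fell without HF library 5, and 0 in the other 11 fits. DESeq2 called 8. In the proteasome list 1 fell without HF library 4, and 6 fell without HF library 5, and DESeq2 called 9 falls. edgeR, DESeq2 and limma voom each called 0 of the 8 mitochondrially encoded genes, and edgeR gave 0 of them an unadjusted p under 0.05 (median log2 fold change -0.04). Psmd14 did not pass without HF library 4 (-0.27), and Psmd13 did not pass without HF libraries 1 to 4 or HFLF libraries 1 to 3, 5 or 6 (-0.19 to -0.16). Ndufa10 did not pass without HF libraries 1 to 4 or 6 or HFLF libraries 1 to 6 (-0.28 to -0.23), and Ndufb3 did not pass without HF libraries 1 to 4 or 6 or HFLF libraries 1 to 6 (-0.28 to -0.21). Psmd14 did not pass in 1 model that also held the LF livers (adjusted p = 0.0818). Ndufb3 did not pass with a fit without robust estimation (adjusted p = 0.0508). Psmd13 overlaps Sirt3 on the other strand.

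Among genes of microRNA processing, 3 of 18 genes measured rose, 0 fell and 15 did not pass, with a median of 0.13. The rises were Dicer1, the enzyme that cuts microRNA precursors (0.26 ± 0.07, adjusted p = 0.0459), Khsrp (0.21) and Tnrc6a (0.26), proteins of microRNA maturation and silencing. Dicer1 stood at 29.4, 33.9 and 43 CPM in HF and 39.6, 42.5 and 44.4 CPM in HFLF, with overlap. Of the genes listed as let-7 targets, 5 of 29 genes measured rose, 1 fell and 23 did not pass, with a median of 0.05. Beside Irs2, Insr and Dicer1, the rises included Rictor, a subunit of mTOR complex 2, from a median of 14.5 to 20.3 CPM (0.42 ± 0.08, adjusted p = 0.0117). The ubiquitin-conjugating enzyme gene Cdc34 was the fall (-0.27 ± 0.06, adjusted p = 0.0184). In the list 2 to 3 rose without HF libraries 1 to 4 or HFLF libraries 1, 2 or 4 to 6. Dicer1 did not pass without HF libraries 1 to 4 or HFLF libraries 1 to 6 (0.23 to 0.28), and Khsrp did not pass without HF libraries 1 to 4 or HFLF libraries 1 or 3 to 6 (0.19 to 0.22). Tnrc6a did not pass without HF libraries 1 to 4 or 6 or HFLF libraries 3 to 6 (0.21 to 0.28), and Cdc34 did not pass without HF library 4 (-0.26). Dicer1, Khsrp, Tnrc6a, Rictor and Cdc34 did not pass in 1 model that also held the LF livers (adjusted p = 0.0568 to 0.1). Dicer1 and Tnrc6a did not pass with upper-quartile factors (adjusted p = 0.05 to 0.0503). Tnrc6a did not pass with a fit without robust estimation (adjusted p = 0.0512).

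**Figure D5:**
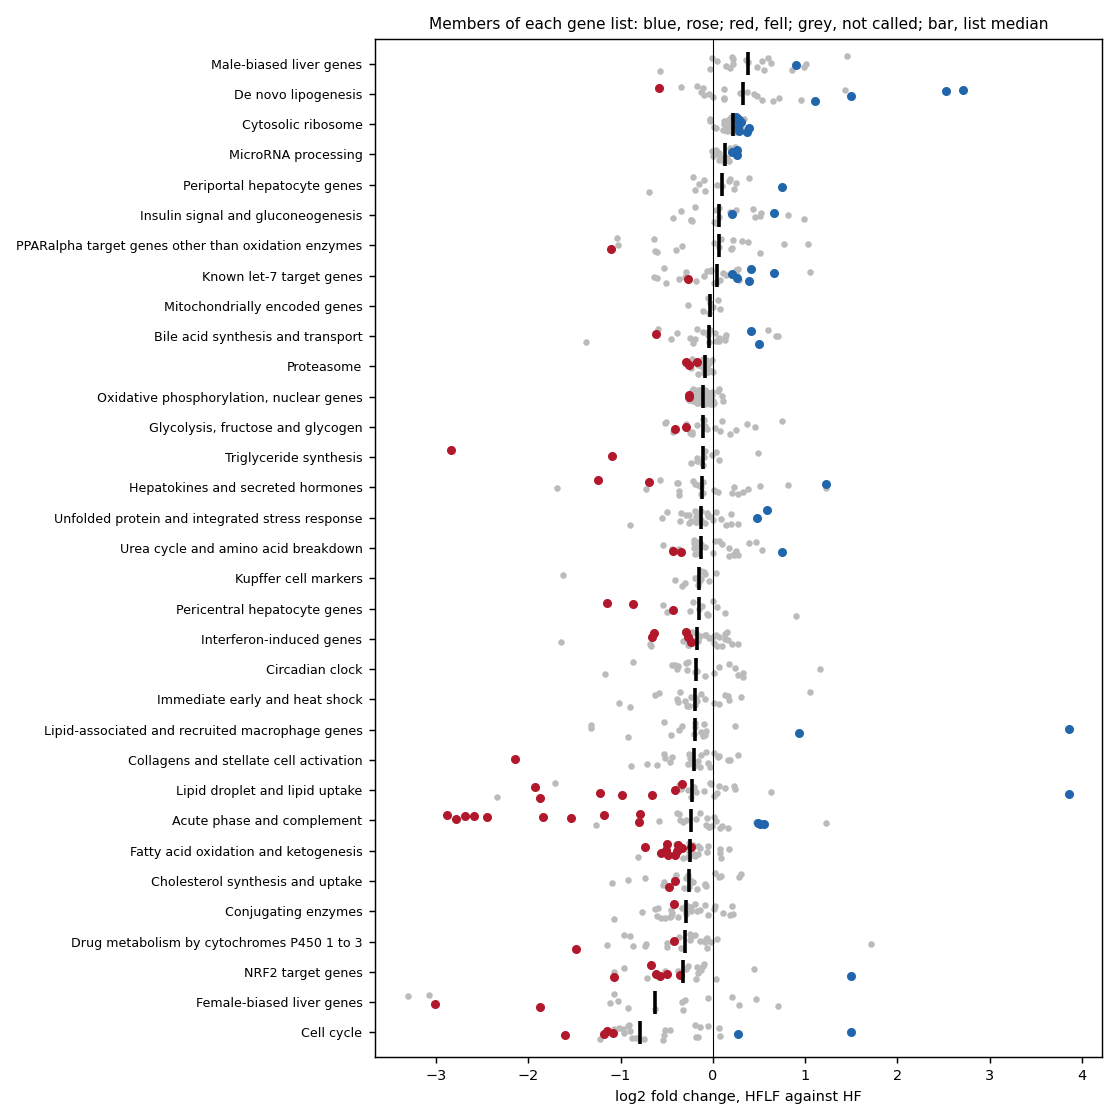
Log2 fold change of HFLF against HF (x axis) for every measured member of the 33 gene lists (y axis), ordered by list median (black bar), with genes that rose in blue, genes that fell in red and the rest in grey. Medians run from -0.79 for cell cycle to 0.38 for male-biased genes, beside -0.003 over all genes.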

How the data were processed

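Raw read counts per gene of the liver libraries were deposited by the authors. The reads were aligned with STAR to GRCm38.p6, per the submitters' processing notes. The counting tool, the aligner version and the strand setting were not given in the sources used here. Every gene of the table has at least 0.5 CPM in at least 6 of the 18 liver libraries, so lower genes were not tested. Counts of the 12 HF and HFLF libraries were fitted with edgeR 4.0.16 (TMM factors, robust quasi-likelihood fit, no covariates), and p-values were adjusted over all 14052 genes by Benjamini and Hochberg, with a threshold of 0.05. The fit was tested on simulated counts with known fold changes, the same dispersion for every gene and no grouping of libraries within a diet. That simulation cannot show how the fit behaves with uneven libraries such as these HF livers. CPM are counts per M of a library's summed gene counts, without TMM factors, and overlaps were read on them. DESeq2 1.42.0, limma 3.58.1 voom, other factors and filters, a model with the LF livers, a replicate block and leaving out each library were the alternatives.

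The text names the 10 largest rises and falls among called genes whose mean CPM had a log2 of at least 2. It also names up to 4 genes of smallest p in each of 33 lists. A fixed set was named too, which holds Cidec, Plin2, Fasn, Scd1, Acaca, Cyp7a1, Cpt1a, Ppara, Fgf21, Hspa5 and Mki67. Predicted genes, Mup genes and immunoglobulin segments were left out. The comparison, the lists and the rule were chosen with earlier results of these data known. An RPKM table was not used here, and a few genes counted in the lists are not reported here by name.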

Additional observations from a re-analysis of the deposited data

Results flagged for a closer look

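In 26 of 250 groups of 6 libraries tested for the 125 genes named, the highest or lowest library stood apart from the other 5, by a gap that exceeds Dixon's 95% critical value (10.4% of groups). Dixon's value marks about 1 in 20 groups where values are normal and groups independent. CPM need not be normal and the groups share libraries, so the 10.4% cannot be read as an excess. HF library 1 was set apart above its group for Acacb (374 CPM against 102 to 193 in the others), Cd9 (24 CPM against 8.71 to 12.8 in the others), Chrna4 (43.4 CPM against 3.88 to 12.7 in the others), Fasn (1924 CPM against 616 to 1017 in the others), Fgf21 (14.8 CPM against 2.49 to 6.28 in the others) and G6pdx (6.48 CPM against 3.3 to 4.37 in the others). HF library 1 was also set apart above its group for Glul (2099 CPM against 1284 to 1577 in the others), Lepr (4.16 CPM against 1.82 to 2.58 in the others), Mmp12 (6.58 CPM against 0.352 to 2.63 in the others), Pdzk1ip1 (5.64 CPM against 0.814 to 2.41 in the others), Pnpla3 (5.54 CPM against 0.247 to 1.13 in the others) and Pnpla5 (1.88 CPM against 0.0857 to 0.352 in the others). HF library 1 was also set apart above its group for Scd1 (17540.0 CPM against 2554 to 6069 in the others). HF library 5 was set apart above its group for Marco (44 CPM against 1.76 to 14.8 in the others), Saa1 (346 CPM against 37.5 to 115 in the others), Saa2 (206 CPM against 23.9 to 79 in the others) and Tnrc6a (58 CPM against 43.8 to 48.3 in the others). HFLF library 4 was set apart above its group for Cdk2 (28.9 CPM against 19.7 to 23 in the others), Fgf21 (22.1 CPM against 3.39 to 6.76 in the others) and Saa3 (4.73 CPM against 1.3 to 2.36 in the others). HFLF library 4 was set apart below its group for Bckdhb (65.5 CPM against 89.4 to 94 in the others). HFLF library 2 was set apart above its group for Cyp2d26 (1089 CPM against 899.9 to 967 in the others) and Orm2 (3.84 CPM against 1.14 to 1.94 in the others). HFLF library 6 was set apart below its group for Gclc (134 CPM against 183 to 212 in the others) and Slc27a4 (37.3 CPM against 42.8 to 45.6 in the others). HF library 2 was set apart above its group for Nr1i3 (250.0 CPM against 131 to 148 in the others). HF library 1 held 13 of the 26 values. Their causes were not tested.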

How the results depend on the processing

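The count of 1181 genes called was 1189 with RLE factors, 1209 with upper-quartile factors (512 higher and 697 lower), 1224 and 1346 with stricter filters on low counts, 1202 without robust estimation and 1541 with limma voom. It moved by over 1.5 times with DESeq2 (1924, 898 higher and 1026 lower), in 1 model that also held the LF livers (735, 307 higher and 428 lower) and with a log2 fold change of at least 1 required (142, 62 higher and 80 lower). The last is a subset by construction, and the cause of the others was not tested. Leaving out 1 library at a time gave 402 to 1653 calls. The replicate numbers of the labels were also fitted as a block, which gave 926 calls. The deviations of same-numbered HF and HFLF libraries from their group means correlated at -0.109 to 0.323, and 2 of 6 HF libraries correlated best with their own number, so the numbers were not taken to pair the libraries. Of the 103 named genes that were called, 43 passed with each library left out, 42 passed in all 9 other refits and 103 kept their sign in all of these. 43 did not pass in the model with the LF livers, 6 with limma voom and 31 with the replicate block, among them Fitm1, Plin4 and Cd36 (adjusted p = 0.164, 0.139 and 0.104 with the block). The block also lost Adgrf1, Bckdhb, Cdk1, Cdk2, Cfd, Chrna4, Cyp2a22, Elovl3, Fabp2, Fabp4, Gpat3, Ifi35, Insr and Isg15. Further losses with the block were Khsrp, Lgals1, Mt1, Mt2, Ndufa10, Ndufb3, Orm2, Orm3, Pfkl, Psmd13, Raet1d, Saa2, Tnrc6a and Tsku. Named genes that did not pass in the main fit and changed sign in an alternative follow. Cyp7a1 (-0.05) was 0.26 with limma voom, 0.11 with the replicate block and -0.33 to 0.31 with each library left out. Fgf21 (0.38) was -0.20 to 0.87 with each library left out. Hspa5 (-0.02) was -0.17 to 0.16 with each library left out. Plin2 (0.13) was -0.044 to 0.26 with each library left out. Of the 33 list medians, 27 kept their sign in all 21 alternatives fitted, leave-one-out fits included, and those of PPARalpha target genes other than oxidation enzymes, bile acid synthesis and transport, lipid-associated and recruited macrophage genes, mitochondrially encoded genes, known let-7 target genes and periportal hepatocyte genes did not in 1 or more. Calls of genes near or below 1 CPM in a group, such as Cdk1, Cyp1a1 and Orm3, rest on few counts per library. With 6 libraries a group, small differences of single genes fall under the threshold, and a gene that did not pass is not shown to be equal between the diets.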

Other observations

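Described here are the 12 called genes of smallest p outside the lists and the largest changes, predicted genes apart. Their mean CPM had a log2 of at least 2. They were chosen after their values were seen. HF and HFLF libraries did not overlap for any of the 12, which were picked on this same contrast. Gabbr2, a subunit of the GABA-B receptor, stood at 26, 31.4 and 39 CPM in HF and 51.8, 69.6 and 80.5 CPM in HFLF (1.04 ± 0.12, adjusted p = 0.00114). Smad9, a transcription factor of bone morphogenetic protein signals, stood at 7.14, 8.42 and 13 CPM in HF and 15.9, 22.7 and 32.1 CPM in HFLF (1.35 ± 0.18, adjusted p = 0.00362). Gm2a, the lysosomal activator of GM2 ganglioside breakdown, stood at 86.5, 96.7 and 98.9 CPM in HF and 129, 138 and 155 CPM in HFLF (0.55 ± 0.06, adjusted p = 0.000832). All 3 rose, as did Hs3st3b1, a heparan sulfate sulfotransferase (0.52 ± 0.07, adjusted p = 0.00194), and Eif3a, a subunit of a translation initiation factor (0.35 ± 0.05, adjusted p = 0.00438). H2-Q7, a class I histocompatibility gene, rose as well (0.61 ± 0.06, adjusted p = 0.000819), but it has near copies among its neighbours, so its share of their reads is uncertain. Gda, the guanine deaminase of purine breakdown, stood at 23.5, 31 and 33.9 CPM in HF and 8.67, 15.1 and 16.2 CPM in HFLF (-1.15 ± 0.14, adjusted p = 0.00166). Acy3, an aminoacylase that deacetylates mercapturates, stood at 90.5, 105 and 117 CPM in HF and 67, 69.9 and 73.4 CPM in HFLF (-0.59 ± 0.07, adjusted p = 0.00166). Acsf2, a member of the acyl-CoA synthetase family, stood at 220.0, 236 and 279 CPM in HF and 164, 172 and 184 CPM in HFLF (-0.49 ± 0.07, adjusted p = 0.00438). These 3 fell, and so did Antxr2, a receptor for anthrax toxin (-0.70 ± 0.10, adjusted p = 0.00548), Tuba1c, an alpha tubulin (-0.65 ± 0.09, adjusted p = 0.00284), and Fam107b (-0.65 ± 0.09, adjusted p = 0.004).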
